A study of Mus musculus with 2 samples.

Results

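Genes of 10 testis proteins of the ADAM family were examined: Adam1a, Adam1b, Adam2, Adam3, Adam4, Adam5, Adam18, Adam24, Adam29 and Adam32. They were chosen by symbol, as 10 of the 50686 genes that the deposited count matrix lists. All 10 were measured, with 1057 (Adam1a) to 39427 (Adam5) unique molecular identifiers (UMIs, tags that let each captured RNA molecule be counted only once). The study captured single testis cells of 2 untreated wild-type C57Bl/6J Crl littermates at 8 weeks of age in droplets, with 1 library of 3' RNA ends per mouse. The tubules were cut and digested, and the suspension was filtered to remove part of the somatic cells, so that the libraries hold few of them. Both mice are of 1 genotype and condition, and the comparisons below are between stages of germ cells within the same animals. The mice held 1237 and 1315 cells with 27450497 and 30302332 UMIs, of which the 10 genes took 58041 (0.211%) and 65303 (0.216%).

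ADAM proteins carry a disintegrin domain and a domain related to zinc metalloproteases, and most sit in the cell membrane. In the testis a large branch of the family is made in germ cells, carried to the sperm surface, and trimmed as the sperm mature. Several of them travel in complexes that sperm need to pass into the oviduct and to meet the egg, and loss of Adam2 or Adam3 leaves male mice infertile. Germ cells make them while they pass from spermatocytes, which carry out meiosis, through round spermatids to elongating and condensing spermatids, which pack their chromatin with protamines and stop transcription.

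The site that binds zinc in an active ADAM protease is written in the DNA as 3 codons for histidine, 1 for glutamate and 1 for glycine at fixed distances. It is shown for the 10 genes because it separates members that hold all 5 codons from members that hold only some of them. Each line is 33 bases of the coding strand, 5' to 3', read from the GRCm38 reference by way of the GENCODE annotation, and capitals mark the codons that match the site. Genes without the full site are shown at the place that aligns with it.
Adam1a: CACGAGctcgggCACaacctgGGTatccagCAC
Adam1b: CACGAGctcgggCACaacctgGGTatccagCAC
Adam24: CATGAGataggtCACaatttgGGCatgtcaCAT
Adam29: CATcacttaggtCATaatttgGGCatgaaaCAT
Adam4: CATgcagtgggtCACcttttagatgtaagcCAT
Adam2: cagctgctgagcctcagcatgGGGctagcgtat
Adam3: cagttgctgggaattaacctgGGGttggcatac
Adam5: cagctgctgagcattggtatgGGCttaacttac
Adam18: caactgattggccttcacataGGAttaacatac
Adam32: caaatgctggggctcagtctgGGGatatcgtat

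Adam1a (chr5:121520089-121520121, minus strand), Adam1b (chr5:121501937-121501969, minus strand) and Adam24 (chr8:40680518-40680550, plus strand) held all 5 codons. Adam29 (chr8:55872374-55872406, minus strand) held 4, without the glutamate. Adam4 (chr12:81420763-81420795, minus strand) held the 3 histidines alone. Adam2 (chr14:66053841-66053873), Adam3 (chr8:24707418-24707450), Adam5 (chr8:24806449-24806481), Adam18 (chr8:24647848-24647880) and Adam32 (chr8:24901501-24901533), all on the minus strand, kept only the glycine.

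The same 5 genes without histidines were the ones with many exons. Adam18 (chr8:24602246-24674755), Adam3 (chr8:24677225-24725852), Adam5 (chr8:24727093-24824369) and Adam32 (chr8:24836140-24948804) lay next to each other on the minus strand, within 346559 bases and with gaps of 2469, 1240 and 11770 bases between them. They had 19 to 22 coding exons, and Adam2 (chr14:66027329-66077733) had 20. The other 5 genes had the whole protein in 1 coding exon. Adam1b (chr5:121500098-121503435) and Adam1a (chr5:121518576-121545482) lay 15140 bases apart on the minus strand, and their proteins, translated from the reference, were identical at 73.0% of 752 aligned residues. The next closest pair with 1 coding exon each, Adam24 (chr8:40675077-40682199) and Adam29 (chr8:55870912-55906948), shared 43.8%. Adam3 and Adam4 (chr12:81419443-81421946) were the least alike of all pairs, at 27.6%.

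The cells were grouped by K-means clustering without the 10 genes, and 6 clusters of germ cells were numbered along a diffusion ordering. Cluster 1 (162 cells) was early spermatocyte-like, cluster 2 (528 cells) pachytene or later spermatocyte-like, clusters 3 (695 cells) and 4 (442 cells) round spermatid-like, and clusters 5 (197 cells) and 6 (508 cells) elongating or condensing spermatid-like. The names rest on 9 to 13 of 14 markers, except cluster 3, where 4 round spermatid markers (Ssxb1, Ssxb2, Ssxb3 and Tex21) and 4 pachytene markers passed. The median cell held between 11689 UMIs (cluster 6) and 23661 UMIs (cluster 5). Levels are UMIs per 1000000 UMIs of a mouse and cluster (CPM), and since 3' counts are not set per length they are compared between cells and never between genes. The sums behind them hold 1068201 to 10465588 UMIs. No cell barcode was shared between the mice. Summed Sertoli cell markers lay between 19.1 and 110.5 CPM in the 6 clusters, highest in cluster 1, against 21761 CPM in 7 Sertoli cell-like cells. Summed Leydig cell markers lay between 25.4 and 62.4 CPM there, against 38629 CPM in 5 Leydig cell-like cells, and the part of such cells in the values below was not tested.

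The 10 genes fell into 2 timings. Adam1b, Adam2, Adam3, Adam5, Adam18 and Adam32 were already present in spermatocytes and had their highest level in cluster 2, or for Adam3 in cluster 3. Adam1a, Adam4, Adam24 and Adam29 were at 0.764 to 4.68 CPM in clusters 1 and 2 of either mouse and had their highest level in cluster 4 (Adam24 and Adam29) or cluster 5 (Adam1a and Adam4). For each of the 10 genes the highest cluster was the same in both mice. The 5 genes with many exons were all in the spermatocyte group, and of the 5 with 1 coding exon only Adam1b was.

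**Figure D1:**
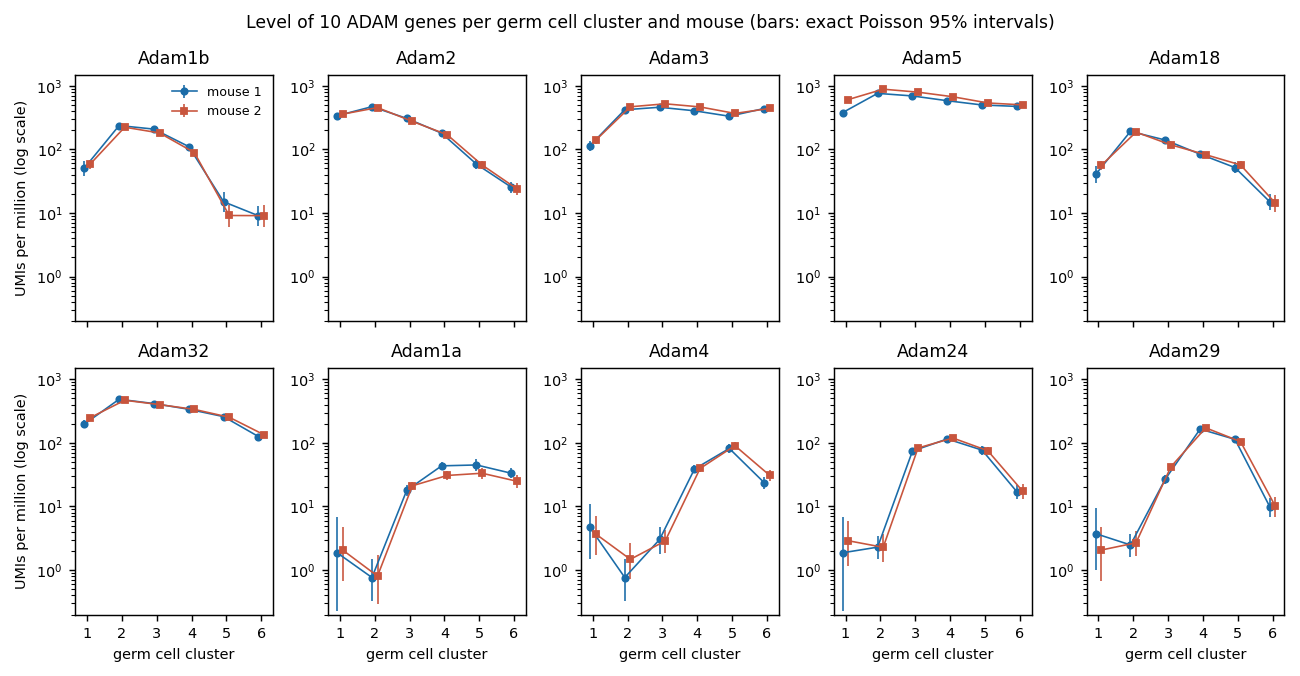
Level of the 10 ADAM genes in CPM (log scale) in germ cell clusters 1 to 6, with circles for mouse 1, squares for mouse 2 and bars for exact Poisson 95% intervals, which cover counting error only. The first 6 panels (Adam1b to Adam32) hold genes already present in clusters 1 and 2, and the last 4 (Adam1a, Adam4, Adam24, Adam29) hold genes that stayed below 5 CPM there and reached their highest level in cluster 4 or 5.

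Neighbouring clusters were compared with edgeR's quasi-likelihood test on the UMIs summed per mouse and cluster, 2 mice in each, with a gene called at an adjusted p under 0.05 over 14106 rows. Its default scaling (TMM) sets libraries so that most rows keep their level, while CPM divides by all UMIs. The choice matters in spermatids. Scaling by total UMIs moved the median log2 change of all rows from 0.01 to -0.22 in cluster 2 against 1, from -0.06 to -0.31 in cluster 4 against 3, from -0.06 to -0.57 in cluster 5 against 4 and from -0.01 to -0.60 in cluster 6 against 5. The share of all calls that were higher moved with it, from 51.3% to 39.6%, from 56.2% to 40.0%, from 52.5% to 30.5% and from 40.9% to 14.3%. DESeq2's size factors gave 37.1% in cluster 2 against 1 and 53.5% in cluster 6 against 5. Fold changes below are on the TMM scale, later minus earlier cluster, and directions that turn with the scaling are named with them.

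Adam2, fertilin beta, is the partner that joins with Adam1a or Adam1b and is needed for several other ADAM proteins to reach the sperm surface. Adam2 had 337, 469, 306, 179.5, 58.5 and 25.4 CPM in clusters 1 to 6 of mouse 1. In mouse 2 Adam2 had 358, 453, 275, 169.7, 56.8 and 24.0 CPM. No neighbouring pair of clusters in this order of levels overlapped between the mice. Adam2 rose by 0.67 ± 0.13 (log2, SE) from cluster 1 to 2 (adjusted p = 0.000129) and then fell in every further step, by 0.61, 0.48, 1.09 and 0.63. By TMM, Adam2 and Adam4 alone of the 10 genes were called in all 5 comparisons, and with total UMIs Adam18 was as well. How many of all rows were called in all 5 was not counted. Without the filter on low counts the last fall of Adam2 was not called.

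Adam1b is the fertilin alpha chain found with Adam2 on the sperm itself. It had 50.6, 237, 208, 110.5, 14.98 and 9.03 CPM in clusters 1 to 6 of mouse 1. Mouse 2 gave 57.8, 223, 181, 88.9, 9.12 and 9.07 CPM for Adam1b. Both mice showed a high plateau in clusters 2 and 3, with a step down between clusters 4 and 5. Adam1b rose by 2.32 ± 0.17 from cluster 1 to 2 (adjusted p = 2.59e-10), fell by 0.71 ± 0.15 from cluster 3 to 4 (adjusted p = 0.000378) and fell by 2.58 ± 0.21 from cluster 4 to 5 (adjusted p = 5.77e-10). The last step was not called, at 0.22 ± 0.28 by TMM and -0.37 by total UMIs.

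Adam1a is the fertilin alpha chain that pairs with Adam2 inside germ cells, in the endoplasmic reticulum. Adam1a had 1.87, 0.764, 17.99, 43.5, 44.9 and 33.3 CPM in clusters 1 to 6 of mouse 1. In mouse 2 the values were 2.06, 0.805, 21.1, 30.7, 33.3 and 24.9 CPM. Clusters 4, 5 and 6 overlapped between the mice, and mouse 1 was the higher of the mice in all 3. Adam1a rose by 4.65 ± 0.31 from cluster 2 to 3 (adjusted p = 6.69e-12) and by 1.16 ± 0.19 from cluster 3 to 4 (adjusted p = 2.7e-05). A further rise of 0.58 ± 0.20 from cluster 4 to 5 (adjusted p = 0.0222) came with the TMM scale, and with total UMIs it was 0.07 and not called. From cluster 5 to 6 its change was 0.19 ± 0.21 by TMM and -0.41 by total UMIs, neither of them called.

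The level of Adam1a as counted has a limit of its own. Of the windows of 98 bases, the read length, in the last 500 bases of its transcript, 90.8% were also found in Gm42878, an annotated gene that overlaps it on the same strand, and reads that fit more than 1 gene are not counted by Cell Ranger. Gm42878 had 1 UMI. The size of this loss was not tested. Adam1b shared no such window in its last 500 bases, but 30.4% of all its windows were also found in Adam1a. Of all Adam1a windows, 76.5% were shared with other genes and 13.3% with Adam1b, the latter outside its last 500 bases. Windows were matched on both strands, so the 76.5% includes 10.2% shared with Tmem116, which overlaps Adam1a on the opposite strand. They were read from the GENCODE annotation, not from the Ensembl annotation behind the counts. Adam2, Adam3, Adam5, Adam18, Adam24, Adam29 and Adam32 shared no window at all. Adam4 shared 5.98% of its windows with other genes, none of them in the last 500 bases.

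The share of Adam1a in the counts of the fertilin alpha pair went up during the spermatid stages. Adam1a made up 3.57% and 3.45% of the summed Adam1a and Adam1b UMIs in cluster 1 of mouse 1 and mouse 2, 0.322% and 0.360% in cluster 2, and 7.96% and 10.5% in cluster 3. Its share was 28.3% (exact binomial 95% interval 24.8 to 31.9%) and 25.7% (22.5 to 29.1%) in cluster 4. In cluster 5 it was 75.0% (66.4 to 82.3%) and 78.5% (70.1 to 85.5%), and in cluster 6 78.7% and 73.3%. Such a share does not depend on the scaling, and only its change between clusters can be read, since the counts of the pair are caught unequally. The largest step, between clusters 4 and 5, was larger than the distance between the mice in any cluster, and clusters 5 and 6 overlapped.

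**Figure D2:**
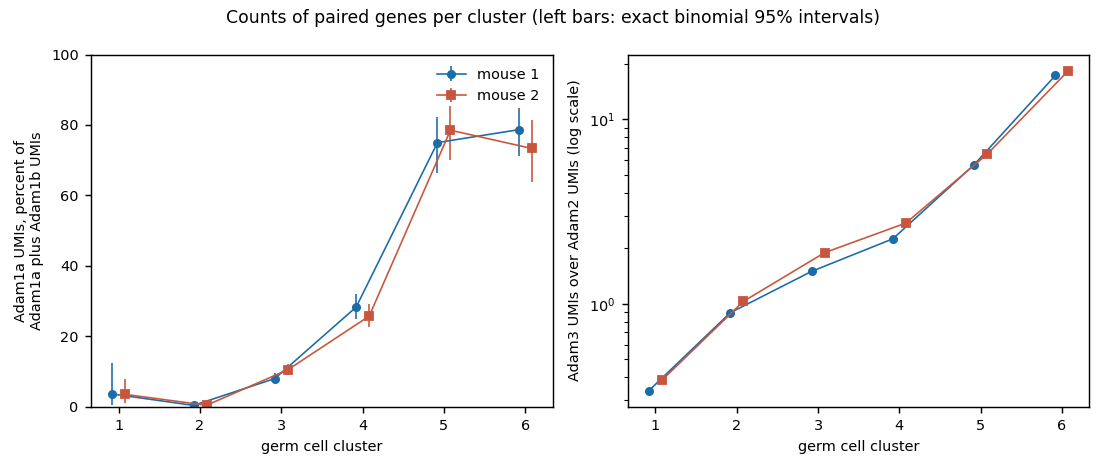
Left, Adam1a UMIs as a percentage of Adam1a plus Adam1b UMIs in germ cell clusters 1 to 6, with exact binomial 95% intervals. Right, UMIs of Adam3 divided by those of Adam2 (log scale), from 0.339 and 0.386 in cluster 1 to 17.3 and 18.3 in cluster 6. Circles are mouse 1 and squares mouse 2, and the mice followed the same course in both panels.

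Adam3, cyritestin, is the sperm surface protein whose loss keeps sperm from entering the oviduct. Adam3 had 114, 419, 459, 404, 332 and 438 CPM in clusters 1 to 6 of mouse 1. In mouse 2 it had 138, 467, 519.9, 464, 367 and 439 CPM. After cluster 1 the values stayed within a narrow band, and clusters 3 and 2, 2 and 6, and 6 and 4 overlapped between the mice. Adam3 rose by 2.05 ± 0.16 from cluster 1 to 2 (adjusted p = 4.58e-10), and the 3 following steps were not called, with TMM values of 0.20, 0.08 and 0.20. By total UMIs the step from cluster 3 to 4 was -0.17 and not called, and that from cluster 4 to 5 was a fall, at -0.31 with an adjusted p of 0.0382. From cluster 5 to 6 Adam3 rose under either scaling, by 0.92 ± 0.15 with TMM (adjusted p = 2.15e-05) and by 0.33 with total UMIs. Counted per cell it did not go up there, since a cell of cluster 5 held a mean of 7.89 and 9.52 Adam3 UMIs and a cell of cluster 6 held 5.53 and 5.98.

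Adam3 and Adam2, both present in spermatocytes, took different courses from there. The ratio of Adam3 to Adam2 UMIs was 0.339 and 0.386 in cluster 1, 0.894 and 1.03 in cluster 2, 1.498 and 1.89 in cluster 3, 2.25 and 2.74 in cluster 4, 5.67 and 6.46 in cluster 5 and 17.3 and 18.3 in cluster 6. It was higher in each cluster than in the one before in both mice, and the mice did not overlap from 1 cluster to the next.

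Adam5, the neighbour of Adam3 on chromosome 8, lacks the zinc site too. Its level was 379, 759, 691, 581, 498 and 473 CPM in clusters 1 to 6 of mouse 1 and, in mouse 2, 607, 883, 792, 671, 536 and 499.9 CPM. Mouse 2 was higher in all 6 clusters, most so in cluster 1 (1.60 times), which held 51 cells of mouse 1 and 111 of mouse 2. Adam5 rose by 0.97 ± 0.18 from cluster 1 to 2 (adjusted p = 0.00013), and its next 3 steps were not called, with the TMM values 0.01 and 0.23 of clusters 4 against 3 and 5 against 4 turning to -0.24 and -0.28 by total UMIs. The call from cluster 5 to 6 depended on the scaling: it was 0.50 ± 0.18 with TMM (adjusted p = 0.033) and -0.09 with total UMIs (not called). The 6 levels of Adam5 spanned 1.69 times, the narrowest range of the 10 genes.

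Adam32 is a further membrane protein of sperm without the zinc site. Adam32 had 197, 485, 415, 338, 259 and 126 CPM in clusters 1 to 6 of mouse 1. Mouse 2 gave 247, 468, 399, 336, 253 and 134 CPM. In both mice the CPM went down from each cluster to the next after cluster 2, without overlap, but this course depended on the scaling. Adam32 rose by 1.34 ± 0.14 from cluster 1 to 2 (adjusted p = 6.53e-08). The step from cluster 2 to 3 was not called with TMM (-0.17 ± 0.14, adjusted p = 0.278) or with total UMIs (-0.23). From cluster 3 to 4 it was not called with TMM (-0.02 ± 0.14, adjusted p = 0.928) and was called lower with total UMIs (-0.27, adjusted p = 0.0478). From cluster 4 to 5 it was not called with TMM (0.11 ± 0.14) and was called lower with total UMIs (-0.40). Its fall of 0.39 ± 0.15 from cluster 5 to 6 (adjusted p = 0.0381) was also called with total UMIs (-0.98, adjusted p = 1.93e-06). It was not called with DESeq2, without the filter on low counts, with all rows in the clustering, or without the cells called as doublets.

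Adam18, at 1 end of the chromosome 8 row, had 40.3, 191, 140.0, 84.0, 51.7 and 14.95 CPM in clusters 1 to 6 of mouse 1. Mouse 2 gave 55.7, 187, 118, 82.4, 56.8 and 14.2 CPM. Only clusters 1 and 5, on either side of the peak, overlapped between the mice. Adam18 rose by 2.18 ± 0.17 from cluster 1 to 2 (adjusted p = 5.51e-10), fell by 0.50 ± 0.14 from cluster 2 to 3 (adjusted p = 0.00421) and fell by 1.31 ± 0.20 from cluster 5 to 6 (adjusted p = 1.3e-05). Its fall of 0.37 ± 0.15 from cluster 3 to 4 (adjusted p = 0.0419) was not called with DESeq2 or with all rows in the clustering. From cluster 4 to 5 Adam18 was not called with TMM (-0.10 ± 0.16) and was called lower with total UMIs (-0.61, adjusted p = 0.00164). The 4 neighbours on chromosome 8 had 1 rise in common, from cluster 1 to 2, and left cluster 6 at 7.73% (Adam18), 27.3% (Adam32), 59.3% (Adam5) and 89.7% (Adam3) of their own highest level.

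Adam24, testase 1, holds a full zinc site and sits on mature sperm. Adam24 had 1.87, 2.29, 74.3, 115, 76.8 and 16.9 CPM in clusters 1 to 6 of mouse 1. The values of mouse 2 were 2.89, 2.28, 83.1, 119, 75.4 and 17.5 CPM. The spermatid clusters lay far above the spermatocyte clusters in both mice, and clusters 3 and 5 overlapped. Adam24 rose by 5.14 ± 0.19 from cluster 2 to 3 (adjusted p = 8.33e-16), the largest rise of the 10 genes, and by 0.83 ± 0.13 from cluster 3 to 4 (adjusted p = 1.81e-05). It fell by 1.55 ± 0.17 from cluster 5 to 6 (adjusted p = 1.23e-07).

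Adam29, whose site lacks the glutamate, had 3.74, 2.48, 26.9, 165, 114 and 9.87 CPM in clusters 1 to 6 of mouse 1. In mouse 2 it had 2.06, 2.68, 42.04, 172, 105 and 10.0 CPM. In both mice clusters 4 and 5 stood far above the others. Adam29 had a rise of 3.80 ± 0.23 from cluster 2 to 3, a rise of 2.53 ± 0.17 from cluster 3 to 4 and a fall of 2.86 ± 0.22 from cluster 5 to 6 (adjusted p = 1.47e-12, 3.66e-11 and 5.19e-10). From cluster 4 to 5 Adam24 and Adam29 were not called with TMM (-0.12 and -0.13) and were both called lower with total UMIs (-0.62 and -0.63).

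Adam4, which is found in complexes with other sperm ADAM proteins, had 4.68, 0.764, 3.03, 38.8, 81.7 and 23.7 CPM in clusters 1 to 6 of mouse 1. In mouse 2 it had 3.72, 1.48, 2.87, 39.6, 90.5 and 30.8 CPM. Its rise came later than that of Adam24, since cluster 3 was still at about 3 CPM in both mice. Adam4 rose by 3.98 ± 0.22 from cluster 3 to 4 (adjusted p = 2.96e-12) and by 1.65 ± 0.17 from cluster 4 to 5 (adjusted p = 2.79e-08), and fell by 1.08 ± 0.18 from cluster 5 to 6 (adjusted p = 4.02e-05). The calls from cluster 1 to 2 (a fall by 1.64 ± 0.48) and from cluster 2 to 3 (a rise of 1.49 ± 0.36) rest on few molecules, with 5 and 9 UMIs in cluster 1, 8 and 11 in cluster 2 and 18 and 24 in cluster 3.

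Counted together, 6 of the 10 genes were called higher and 1 lower from cluster 1 to 2, where 25.9% of all rows were higher and 24.6% lower. From cluster 2 to 3, 4 were higher and 2 lower, beside 31.9% and 31.5% of all rows. From cluster 3 to 4, 4 were higher and 3 lower, beside 26% and 20.3%. From cluster 4 to 5, 2 were higher and 2 lower, beside 23.4% and 21.1%, and with total UMIs 1 was higher and 7 were lower, beside 17.4% and 39.6% of all rows under that scaling. From cluster 5 to 6, 2 were higher and 6 lower, beside 16.4% and 23.6%, and with total UMIs 1 was higher and 6 were lower, beside 6.13% and 36.7%. The median log2 change of the 10 genes by TMM was 0.82, 0.06, 0.04, 0.0033 and -0.51 in these comparisons, beside 0.01, -0.04, -0.06, -0.06 and -0.01 over all rows. By total UMIs it was -0.21 in cluster 4 against 3, -0.50 in 5 against 4 and -1.10 in 6 against 5, beside -0.31, -0.57 and -0.60 over all rows, and without the filter on low counts it was -0.51 in 5 against 4, beside -0.23. On the TMM scale the shares of the 10 genes called higher in cluster 2 and lower in cluster 6 were the farthest above those of all rows.

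**Figure D3:**
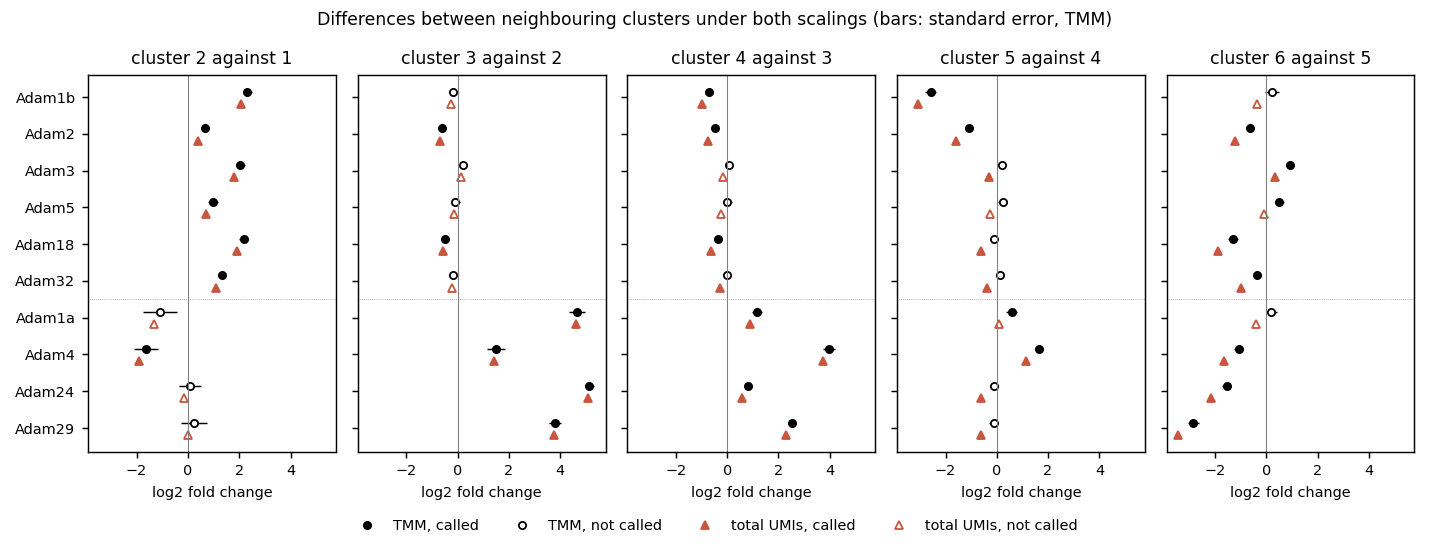
Log2 fold change of the 10 genes between neighbouring germ cell clusters (later minus earlier), as black circles with standard errors for TMM scaling and red triangles for scaling by total UMIs, filled where called at an adjusted p under 0.05. The 4 genes below the dotted line rose in cluster 3 and again in cluster 4 under both scalings. Toward the right the triangles lie further left of the circles, and directions turn for Adam24 and Adam29 (cluster 2 against 1), Adam3 and Adam5 (4 against 3), Adam3, Adam5 and Adam32 (5 against 4) and Adam1a, Adam1b and Adam5 (6 against 5).

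Summed over the 10 genes, ADAM RNA was 1130 and 1474 CPM in cluster 1 and highest in cluster 2, at 2565 and 2687 CPM. It was 2341 and 2434 CPM in cluster 3, 2059 and 2174 CPM in cluster 4, 1531 and 1582 CPM in cluster 5 and 1170 and 1204 CPM in cluster 6. The composition changed with it. With every cell thinned to 5000 UMIs, so that depth is the same, the median cell showed 3, 5, 5, 5, 4 and 3 of the 10 genes in clusters 1 to 6 of either mouse. Without thinning the median in mouse 1 and mouse 2 was 7 and 8 genes in cluster 3, 9 and 8 in cluster 4 and 8 and 7 in cluster 5. Each of these medians takes genes of both timings in 1 cell. Free RNA in the droplets can add to such counts, and its part was not tested. UMIs per cell of all 10 genes were lower in cluster 6 than in cluster 5 in both mice, together with the depth of the cells, and fewer molecules per cell cannot be told apart there from a smaller share caught.

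**Figure D4:**
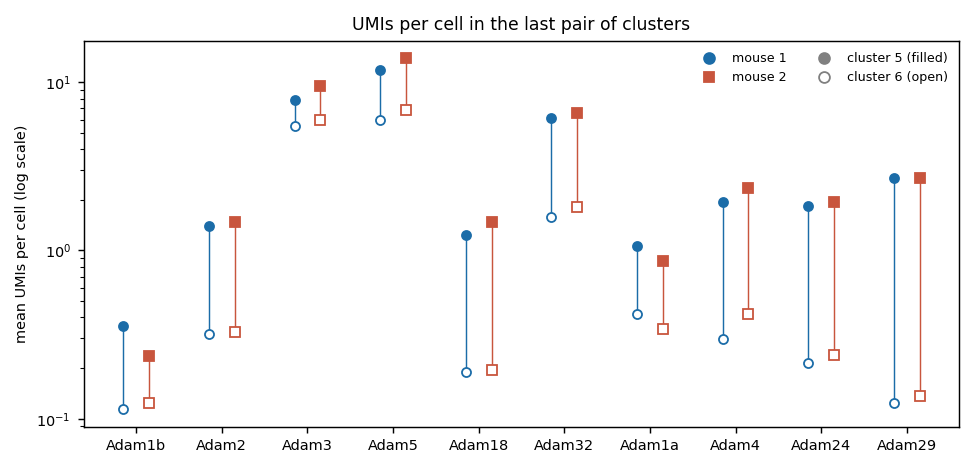
Mean UMIs per cell (log scale) of each of the 10 genes in cluster 5 (filled) and cluster 6 (open), circles for mouse 1 and squares for mouse 2. The open symbol is the lower in all 10 genes and both mice. The median cell also held fewer UMIs of all genes in cluster 6 (11689) than in cluster 5 (23661). How many of all rows were lower per cell was not counted. The lines are shortest for Adam3, with 7.89 and 9.52 UMIs in cluster 5 and 5.53 and 5.98 in cluster 6, and longest for Adam29, with 2.70 and 2.71 UMIs against 0.125 and 0.137.

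The 2532 germ cells were also ranked by diffusion pseudotime, without the 10 genes, and cut into 20 bins of equal cell number. Adam1b, Adam18 and Adam32 were highest in bin 3, Adam2 and Adam5 in bin 4 and Adam3 in bin 8. Adam24 was highest in bin 13, Adam29 in bin 14, and Adam1a and Adam4 in bin 15. No gene was highest in bins 5 to 7 or 9 to 12 when both mice were averaged. The place of Adam3 is poorly set, since its highest bin was 19 in mouse 1 and 8 in mouse 2 and its level was at or above 50% of the highest in 19 of 20 bins. Adam29 was at or above 50% in only 4 bins, the fewest, and Adam4 in 6. From bin 15 on the bins mix clusters 4, 5 and 6, so the order within the spermatid group is uncertain there. The empty stretch between the groups was narrower in single mice. Adam24 was highest in bin 11 of mouse 1, and Adam1a in bin 12 of mouse 2. A shortest-path ordering moved the highest bin of 6 of the 10 genes.

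**Figure D5:**
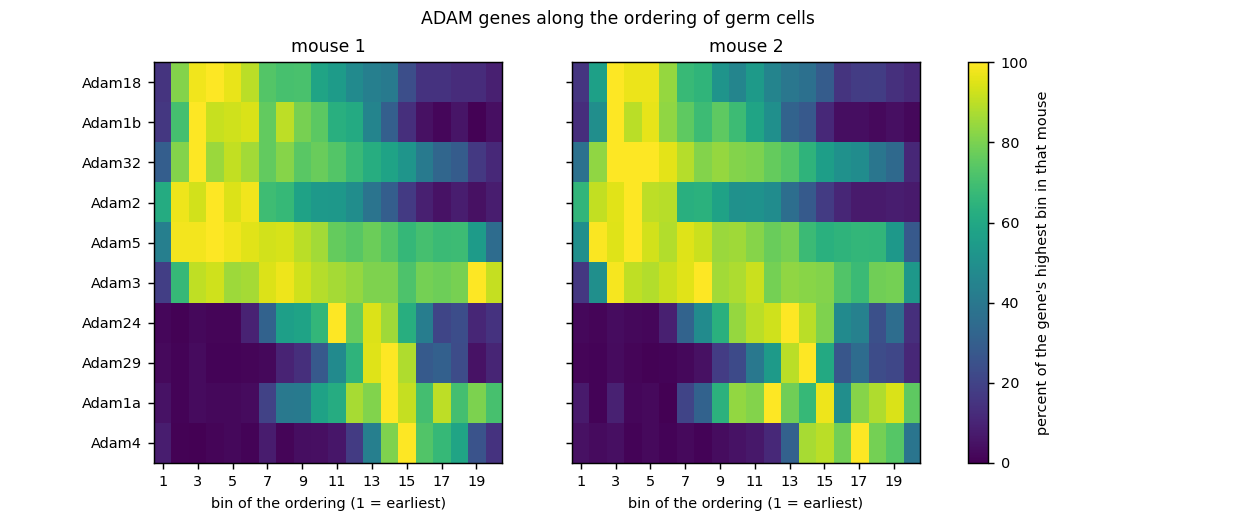
Level of the 10 genes in 20 bins of the ordering of germ cells (bin 1 the earliest), mouse 1 on the left and mouse 2 on the right, in colour as a percentage of the gene's own highest bin in that mouse. Rows are sorted by the highest bin of both mice. Averaged over the mice, the upper 6 genes pass 50% of their highest bin in bin 1 (Adam2) or bin 2 and the lower 4 in bins 8 to 14, while Adam3 stays bright to the end and peaks in bin 19 in mouse 1 and bin 8 in mouse 2.

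Over the 40 values of 20 bins in 2 mice, which share libraries and the depth of their cells, the members were compared pair by pair by Pearson's r of log2(CPM + 10), as a description. Adam1b and Adam18 were the most alike within the spermatocyte group (r = 0.953), followed by Adam1b and Adam2 (r = 0.945). In the spermatid group Adam24 and Adam29 were the closest (r = 0.858). Adam1a and Adam1b, the pair with the most similar proteins, had r = -0.545, and Adam2 and Adam4 were the most opposed (r = -0.830). Adam2 and Adam3 had r = -0.01.

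Among 7886 other genes with at least 500 UMIs, those with the course most like a member were picked by the same measure. Tcp1, a subunit of the cytosolic chaperonin, came first for Adam2 (r = 0.990), and Shcbp1l and 1110004E09Rik followed it. Zpbp2, which encodes a protein of the acrosome, came first for Adam1b (r = 0.987). Galntl6 (r = 0.989) led for Adam18, Tex40 (r = 0.984) for Adam32 and the serine protease gene Prss39 (r = 0.944) for Adam3. The 3 genes nearest to Adam5 were Cmtm2b (r = 0.945), Prdx6b (r = 0.934) and Cmtm2a (r = 0.929). In the spermatid group the transcription factor gene Sox5 (r = 0.990) led for Adam24, Rassf9 (r = 0.977) for Adam29 and 1700063H06Rik (r = 0.978) for Adam1a. The nearest gene to Adam4 was another ADAM gene, Adam6a (r = 0.982).

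The other testis ADAM genes, a list of 10 (Adam6a, Adam6b, Adam20, Adam21, Adam25, Adam26a, Adam26b, Adam30, Adam34 and Adam39), each with 1 coding exon, kept mostly to the spermatid timing. From cluster 1 to 2, 2 of them were called higher and none lower, beside 25.9% and 24.6% of all rows, and from cluster 3 to 4, 9 higher and none lower, beside 26% and 20.3%. From cluster 2 to 3, 9 of them were called higher and 1, Adam30, lower (median log2 change 4.40, beside -0.04 over all rows), where 31.9% and 31.5% of all rows were called. Adam6a had 1.53 and 1.61 CPM in cluster 2, 4.71 and 4.90 CPM in cluster 3, 79.5 and 80.3 CPM in cluster 4 and 174 and 181 CPM in cluster 5, and so had its main step a cluster later than most, as Adam4 did. Adam26a had 3.63 and 2.68 CPM in cluster 2, 81.7 and 87.2 CPM in cluster 3 and 123 and 122 CPM in cluster 4. From cluster 4 to 5, 3 were called higher and 5 lower by TMM (23.4% and 21.1% of all rows), and 2 higher and 7 lower by total UMIs (17.4% and 39.6%). From cluster 5 to 6 no gene of the list was called higher and 8 were called lower by TMM (16.4% and 23.6% of all rows). By total UMIs none was higher and 9 were lower (6.13% and 36.7%). Adam30 alone followed the spermatocyte timing, with 167 CPM in cluster 2 of both mice, 36.2 and 38.6 CPM in cluster 5 and 12.1 and 13.3 CPM in cluster 6. The zinc site was complete in 8 of the 10, all but Adam6a and Adam6b.

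The 14 ADAM genes known from somatic tissues were nearly absent. Adam7, Adam28 and Adamdec1 had no UMI in 57752829, which allows up to 0.0519 CPM, and only Adam11, Adam15, Adam17 and Adam22 passed the filter on low counts. Adam17, the shedding enzyme of many tissues, led them with 181 UMIs, and had 6.55 and 9.08 CPM in cluster 1 against 0 in cluster 6, which allows up to 0.846 and 0.971 CPM. Of the 4 tested, Adam22 was higher and none lower from cluster 1 to 2 by TMM, beside 25.9% and 24.6% of all rows. From cluster 2 to 3, 1 was higher and 2 lower (Adam11 and Adam17), beside 31.9% and 31.5%. The higher one was Adam15, with 6 and 0 UMIs before and 34 and 47 after. From cluster 4 to 5 none was higher and Adam15 was lower, beside 23.4% and 21.1%. None was called from cluster 3 to 4 (26% and 20.3% of all rows) or 5 to 6 (16.4% and 23.6%).

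Sperm ADAM proteins fold in the endoplasmic reticulum, and a list of 19 chaperones and processing factors was followed beside them, of which 18 could be tested. From cluster 1 to 2, 7 were called higher and 6 lower by TMM, beside 25.9% and 24.6% of all rows. This balance moved with the processing. There were 5 higher and 8 lower by total UMIs (20.4% and 31.2% of all rows) and with DESeq2 (18.2% and 30.8%). Without the cells called as doublets there were 7 and 4 (26.9% and 23.3%). From cluster 2 to 3, 6 were higher and 9 lower by TMM, beside 31.9% and 31.5%. From cluster 3 to 4, 5 were higher and 6 lower by TMM, beside 26% and 20.3%. From cluster 4 to 5, 5 were higher and 5 lower by TMM (23.4% and 21.1% of all rows), and 3 and 9 by total UMIs (17.4% and 39.6%). From cluster 5 to 6, 4 were higher and 4 lower by TMM (16.4% and 23.6%), and none and 10 by total UMIs (6.13% and 36.7%). The median log2 change of the list by TMM was -0.26, -0.13, -0.16, 0.14 and 0.02 in these comparisons. Clgn, calmegin, the chaperone that Adam1a, Adam1b and Adam2 need to pair, had 779.8 and 709 CPM in cluster 1, 1104 and 1012 CPM in cluster 2 and 57.3 and 46.6 CPM in cluster 6. Cmtm2b, a membrane protein of the chemokine-like factor family, had 1889.7 and 1908 CPM in cluster 2 and 579 and 556 CPM in cluster 6. Cmtm2a, with the most UMIs of the list, had a mean over the mice of 1690 CPM in cluster 2 and 593 CPM in cluster 6. Hspa5, the general chaperone BiP, had 874 and 755 CPM in cluster 2 and 26.1 and 21.4 CPM in cluster 5. Calr3 and Pdilt, germ cell relatives of calreticulin and of protein disulfide isomerase that Adam3 needs to mature, were picked after their values were seen. Calr3 had 4.78 and 5.63 CPM in cluster 2 and 549.5 and 588 CPM in cluster 5. Pdilt had 5.26 and 6.17 CPM in cluster 2 and 388 and 393 CPM in cluster 4. Calr3 and Pdilt rose with the spermatid timing, at stages where Adam3 was already present. The list as a whole did not share this course, with 6 genes higher and 9 lower from cluster 2 to 3. Tex101 and Ly6k, also picked after their values were seen, went the other way. Tex101 had a mean over the mice of 1653, 76.7 and 36.9 CPM in clusters 1 to 3, and Ly6k 698, 110 and 51.5 CPM. Calr, the general counterpart of Calr3, had 729 and 640.5 CPM in cluster 1 and 48.8 and 35.9 CPM in cluster 6. Pdia3, a general protein disulfide isomerase also picked after its values were seen, had 259 and 221 CPM in cluster 1, 332 and 256 CPM in cluster 3 and 40.9 and 39.8 CPM in cluster 6.

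Promoter sequence, the 250 bases before the RefSeq start in GRCm38.p6, was at hand for Adam1a (chr5:121521696-121521945), Adam1b (chr5:121503436-121503685) and Adam29 (chr8:55906965-55907214), all on the minus strand. They are shown because Adam1a and Adam1b are close copies with opposed courses and Adam29 kept to the fewest bins. Capitals mark matches, on either strand, to the MYB site AACNGNC or to TATAAA, and TGACGT (the core of the CRE) and the RFX half-site GTTGCCA were searched as well.
Adam1a: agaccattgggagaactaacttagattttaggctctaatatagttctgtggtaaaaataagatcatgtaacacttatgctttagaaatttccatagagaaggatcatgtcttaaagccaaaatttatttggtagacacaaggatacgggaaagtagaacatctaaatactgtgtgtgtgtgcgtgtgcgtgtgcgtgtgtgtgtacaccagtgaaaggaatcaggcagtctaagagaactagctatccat
Adam1b: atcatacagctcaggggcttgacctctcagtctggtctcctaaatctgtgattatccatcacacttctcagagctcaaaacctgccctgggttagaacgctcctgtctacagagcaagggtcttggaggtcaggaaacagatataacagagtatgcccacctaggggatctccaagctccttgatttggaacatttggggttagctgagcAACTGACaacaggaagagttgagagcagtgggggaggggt
Adam29: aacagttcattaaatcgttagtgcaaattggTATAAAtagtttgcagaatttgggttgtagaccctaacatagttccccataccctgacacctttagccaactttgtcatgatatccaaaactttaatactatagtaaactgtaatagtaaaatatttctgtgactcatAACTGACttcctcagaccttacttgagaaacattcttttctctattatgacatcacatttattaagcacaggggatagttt

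Adam1b held a match to the MYB site starting 40 bases before the start, and Adam29 held 1 starting 81 bases before it and a TATAAA at 219 bases. Adam1a held none of the 4 motifs in the stretch shown. That stretch lies inside the gene span given above for Adam1a (chr5:121518576-121545482), and the bases before the upstream end of that span were not searched. Of 32851 mouse promoters of the same length, 27.7% held the MYB site, 12.4% TATAAA, 6.47% TGACGT and 3.66% GTTGCCA, and a match of letters is a description, not a binding site.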

How the data were processed

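Single-cell 3' RNA libraries of whole testis from 2 mice were analysed. Per the submitters' processing notes, reads were demultiplexed with bcl2fastq 2.17.1.14 and counted with Cell Ranger 2.0.0. The authors aligned them to repeat-masked GRCm38 with the Ensembl annotation and added repeat rows, downsampled the reads of the deeper library and deposited whole UMI counts, without normalization. All 2552 cells and 51868 rows were kept.

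The members and lists were chosen with earlier results of these data known. Counts were scaled to the median cell, log2-transformed and standardised, and K-means (K = 9, 10 principal components, as in the study) was run on 27740 rows, without the members and lists. A cluster took the class with the highest mean marker score if 3 markers reached 1.5 times the CPM of all cells. The marker condition and K were taken over from earlier work on these data. Clusters with under 50 cells entered no test. Germ cells were ranked by diffusion pseudotime (scanpy 1.11.5, 30 neighbours).

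The 12 sums of counts (6 clusters, 2 mice) were tested with edgeR 4.0.16 (TMM, filterByExpr, two-sided quasi-likelihood test, Benjamini-Hochberg over 14106 rows) in R 4.3.3, after a test on simulated data. P-values set the difference between 2 clusters against the spread of sums within clusters. That spread was estimated over all 6 clusters, shared in part between rows, and comes from 2 littermates only. Each mouse gave a sum to all 6 clusters, and this animal pairs the sums. Deviations from the cluster means correlated between clusters of a mouse at 0.0342 to 0.229 (median 0.0971, 15 pairs), and a fit with mouse as a replicate block was added. DESeq2 1.42.0, total UMI scaling, no filter, repeat rows left out, all rows in the clustering, doublets (25 cells called by scrublet, otherwise kept) left out and each mouse alone were further alternatives. Poisson and binomial intervals cover counting error only.

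All members were named. From the lists, the genes with the most UMIs and all testis ADAM genes could be named, and the 3 genes most correlated with each member.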

Additional observations from a re-analysis of the deposited data

Results flagged for a closer look

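UMIs of some members appeared in cells outside the 6 numbered germ cell clusters, above the limit of 3 counts that a count of 0 allows. Adam2 had 10 UMIs in 4 of 7 Sertoli cell-like cells (118 CPM, exact Poisson 95% interval 56.6 to 217), with up to 5 in 1 cell, and Adam5 had 5 UMIs there (59.0 CPM). In 8 spermatogonium-like cells Adam5 had 8 UMIs (90.2 CPM), Adam32 had 6 and Adam18 had 4. The spermatogonium-like cells passed 10 of 12 spermatogonium markers and also 10 of 15 Sertoli cell markers, and a mixture of cells was not tested. The 10 genes summed to 22 UMIs (259 CPM) in the Sertoli cell-like cells and 25 UMIs (282 CPM) in the spermatogonium-like cells. In 5 Leydig cell-like cells they summed to 6 UMIs (118 CPM). Every numbered germ cell cluster of either mouse held at least 1130 CPM. Adam1a, Adam4 and Adam29 had no UMI in any of these 20 cells. Free RNA in the droplets can give such counts, and its part was not tested. With 2 mice, no sample could be compared with the rest of its group for a value that stands apart.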

How the results depend on the processing

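The fit with mouse as a replicate block kept the direction and the call of all 50 fold changes. Scaling by total UMIs gave members called higher from cluster 4 to 5 as 1 in place of 2, lower as 7 in place of 2, and higher from cluster 5 to 6 as 1 in place of 2. Without the filter on low counts the first 2 of these were 1 and 6. The other counts of called members were within 1.5 times in all alternatives. With total UMIs the direction turned for Adam1a (-0.41) and Adam1b (-0.37) in cluster 6 against 5, Adam3 (-0.17 in cluster 4 against 3, -0.31 in 5 against 4), Adam5 (-0.24, -0.28 and -0.090 in 4 against 3, 5 against 4 and 6 against 5), Adam24 (-0.17) and Adam29 (-0.014) in 2 against 1 and Adam32 (-0.40 in 5 against 4). Without the filter it turned for Adam3 (-0.32), Adam5 (-0.28) and Adam32 (-0.40) in cluster 5 against 4 and Adam5 (-0.033) in 4 against 3. Adam5 in 4 against 3 was -0.0022 without repeat rows. DESeq2 turned Adam24 (-0.20) and Adam29 (-0.053) in 2 against 1 and Adam32 (0.045) in 4 against 3, and all rows in the clustering turned Adam32 there (0.013). Of these, Adam5 in 6 against 5 alone was called in the first place. The highest cluster of all 10 genes was the same with thinning, the mean of CPM per cell, doublets left out and either mouse alone. A shortest-path ordering put cluster 6 before cluster 4 and moved the highest bin of 6 genes. In single mice it moved for Adam1a and Adam4 (mouse 2) and for Adam3 and Adam24 (mouse 1). Each mouse alone has no test. Depth limits Adam1a, Adam4, Adam24 and Adam29 in clusters 1 and 2, with 2 to 26 UMIs a sum.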
